A study of Mus musculus with 8 samples.

Results

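The 10 genes described here make up the MHC class II presentation machinery of the mouse: the classical chains H2-Aa, H2-Ab1 and H2-Eb1, the invariant chain Cd74, the transactivator Ciita, and the peptide-loading chains H2-DMa, H2-DMb1, H2-DMb2, H2-Oa and H2-Ob. They were chosen by symbol, and all 10 of 10 were found among the 22878 gene symbols of the deposited tables. Polyadenylated RNA was sequenced after Smart-seq2, which amplifies full-length transcripts of few cells, in 8 libraries of C57BL/6 mouse marrow, 2 for each of 4 sorted progenitor groups.

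CLP, the common lymphoid progenitors, were sorted as lineage-negative cells bearing CD127, Flt3, Sca-1 and Kit and lacking integrin α4β7. ChILP, the common helper-like innate lymphoid progenitors, were lineage-negative cells bearing CD127, integrin α4β7 and Kit and lacking Flt3 and ST2. PD-1+ cells (labelled as progenitors of innate lymphoid cells other than lymphoid tissue inducer, LTi, cells) came from the same gate with PD-1 and without CCR6. CCR6+ cells (labelled as LTi progenitors) came from it with CCR6 and without PD-1. Before sorting, cells for the CLP and ChILP libraries had lineage-positive cells removed, whereas PD-1+ and CCR6+ cells had been captured magnetically through integrin α4β7. The labels give no mutation, treatment or age for any group. Nothing in them ties the libraries of a group to different animals or cultures, and p-values then measure no more than how these samples spread, which may be technical.

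MHC class II molecules present peptides from endocytosed proteins to CD4+ T cells and are most abundant on B cells, dendritic cells and macrophages. Their alpha and beta chains assemble around the invariant chain, H2-M (DM) then exchanges the remaining invariant chain fragment for peptides, and H2-O (DO) restrains H2-M. Ciita is the coactivator that switches the classical genes on, acting through factors bound at a conserved promoter module of X and Y boxes. LTi cells and other group 3 innate lymphoid cells are known to carry class II molecules too.

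That promoter module is shown here because genes that bear its letters had very unlike levels across the groups. RefSeq promoter windows (GRCm38.p6, 250 bases before to 50 after each annotated start) were at hand for 7 of the 10 members, all on chromosome 17 in the MHC region. Each stretch is in the direction of transcription, and capitals mark TGATTGG, a core of the Y box, and AGCAAC, a core of the X1 box.

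H2-Aa: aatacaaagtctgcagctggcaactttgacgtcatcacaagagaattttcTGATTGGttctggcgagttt
H2-Eb1: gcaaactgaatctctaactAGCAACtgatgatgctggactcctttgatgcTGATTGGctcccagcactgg
H2-Oa: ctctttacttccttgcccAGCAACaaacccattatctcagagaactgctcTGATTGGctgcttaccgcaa
H2-Ob: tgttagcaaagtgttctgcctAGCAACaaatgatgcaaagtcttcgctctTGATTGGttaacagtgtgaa

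The stretch of H2-Aa lies at chr17:34287854-34287923 on the minus strand. Those of H2-Eb1, at chr17:34305756-34305825, H2-Oa, at chr17:34092284-34092353, and H2-Ob, at chr17:34238796-34238865, lie on the plus strand. The Y box core began 50 bases before the annotated start of H2-Aa, 61 before that of H2-Eb1, 45 before that of H2-Oa and 59 before that of H2-Ob. The X1 core began 31, 32 and 29 bases before the Y core in H2-Eb1, H2-Oa and H2-Ob. The stretch of H2-Aa does not hold those letters, but it holds GGCAAC, which differs in the first letter only. TGATTGG or its reverse complement, searched on both strands, was in 6 of the 7 member genes with a window, H2-DMb1 and H2-DMb2 included, and in 7.82% of all 32851 windows. It was in neither of the 2 windows of H2-DMa. Those windows may not cover every annotated start of H2-DMa, so a Y box elsewhere in that gene was not looked for. AGCAAC or its reverse complement was in 3 of the 7 and in 14.8% of all windows. A match describes letters only.

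Before the results, the labels were checked against gate and marker transcripts. Flt3 stood at 92.1 and 157 RPKM (reads scaled to transcript length and library depth) in CLP and at 5.10 to 10.3 in the 6 other libraries. Pdcd1 (PD-1) stood at 181 and 36.3 RPKM in PD-1+ replicates 1 and 2 and at 0 and 1.10 in CCR6+ cells. Ccr6 stood at 84.2 and 23.6 RPKM in CCR6+ cells and at 0 and 8.11 in PD-1+ cells. Replicate 2 of each of these groups thus had less of its own gate marker than replicate 1 and more of the other. ChILP cells, not divided by PD-1 or CCR6, had Pdcd1 at 70.9 and 92.8 RPKM, above PD-1+ replicate 2. Their Ccr6 stood at 3.84 and 8.21 RPKM, below both CCR6+ libraries. Kit, also a gate marker, went from 29.1 RPKM (PD-1+ replicate 1) to 8.21 (replicate 2), and from 17.5 to 6.93 for CCR6+. Il7r (CD127) was likewise lower in replicate 2, from 45.2 to 13.5 and from 27.5 to 12.2. Itgb7 (integrin β7) was instead higher, from 187 to 200 and from 174 to 237. Itga4 (integrin α4), the other chain of that integrin, was lower, from 19.4 to 11.3 and from 12.9 to 9.27. Values without the number 2 libraries of both captured groups, PD-1+ and CCR6+, are given beside the results that turn on them.

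The classical chains and the invariant chain had 1 order in all groups, lowest in CLP, then ChILP, then PD-1+ and highest in CCR6+ cells, and no neighbouring groups overlapped. H2-Ab1 (NM_207105), a classical beta chain, stood at 71.1 and 73.1 RPKM in CLP, 101 and 111 in ChILP, 631 and 1177 in PD-1+ cells and 1402 and 1515 in CCR6+ cells (replicates 1 and 2 throughout). H2-Aa (NM_010378), its alpha partner, stood at 47.3 and 12.5 RPKM in CLP, 52.1 and 64.8 in ChILP, 373 and 638 in PD-1+ cells and 913 and 747 in CCR6+ cells. The libraries thus fell into a low set, CLP and ChILP, and a high set, PD-1+ and CCR6+, with PD-1+ replicate 1 the lowest of the high set for both genes.

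H2-Eb1 (NM_010382), the H2-E beta chain, stood at 18.7 and 4.50 RPKM in CLP, 34.9 and 41.2 in ChILP, 201 and 337 in PD-1+ cells and 601 and 435 in CCR6+ cells. C57BL/6 mice are known to lack expression of H2-Ea, the alpha chain that would pair with it, and the row of H2-Ea-ps had no read outside CCR6+ replicate 2. Cd74 (NM_001042605), the invariant chain that guides class II molecules to endosomes, stood at 93.1 and 54.2 RPKM in CLP, 115 and 158 in ChILP, 1035 and 2100 in PD-1+ cells and 2454 and 2682 in CCR6+ cells. In RPKM, which is per length, Cd74 was the most abundant member in ChILP replicate 2 and all PD-1+ and CCR6+ libraries, and H2-DMa in both CLP libraries and ChILP replicate 1.

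Ciita (NM_007575) followed the same order at far lower levels, and only its PD-1+ and CCR6+ groups overlapped. It stood at 0.462 and 0 RPKM in CLP, 0.709 and 1.34 in ChILP, 4.96 and 9.44 in PD-1+ cells and 17.4 and 8.74 in CCR6+ cells. The 0 in CLP replicate 2 allows a level of up to 0.0390 RPKM (3 reads). In that library H2-Ab1 exceeded H2-Aa 5.87-fold and H2-Eb1 16.2-fold, against 1.502 to 2.03-fold and 2.33 to 3.80-fold in the other 7 libraries. CLP replicate 2 was therefore low in Ciita, H2-Aa and H2-Eb1 but not in H2-Ab1.

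**Figure D1:**
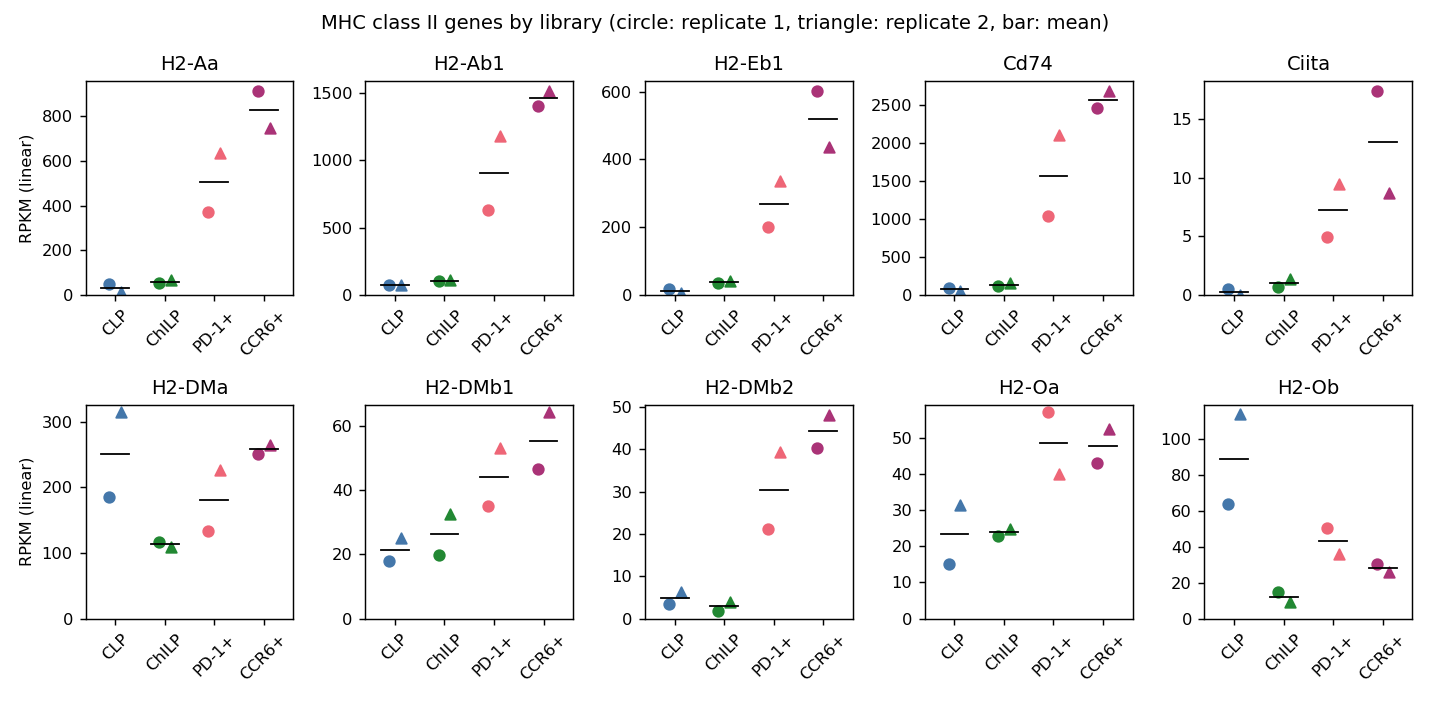
RPKM of each member on a linear axis by group; each point is a library (circle replicate 1, triangle replicate 2) and the bar the mean of 2. The top row (H2-Aa, H2-Ab1, H2-Eb1, Cd74, Ciita) climbs from CLP to CCR6+ cells, while H2-Ob is highest in CLP, at 63.9 and 114, and lowest in ChILP, at 14.9 and 9.002.

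The peptide-loading chains were arranged otherwise. H2-Ob (NM_010389), the beta chain of H2-O, stood at 63.9 and 114 RPKM in CLP, 14.9 and 9.002 in ChILP, 50.6 and 35.7 in PD-1+ cells and 30.5 and 25.6 in CCR6+ cells. Its order was CLP, PD-1+, CCR6+ and ChILP from high to low, with no overlap between neighbours, and so CLP, lowest for the classical chains, was highest for H2-Ob. H2-Oa (NM_008206), the alpha partner of H2-Ob, did not share this order: it stood at 15.1 and 31.6 RPKM in CLP, 22.8 and 25.0 in ChILP, 57.1 and 40.0 in PD-1+ cells and 43.0 and 52.4 in CCR6+ cells. The groups of H2-Oa overlapped within each route of enrichment. GENCODE M21 places BC051537 on the other strand over 321 of the 1088 exonic bases of H2-Oa, and without a stated strand setting their reads cannot be told apart.

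H2-DMa (NM_010386), the alpha chain of the peptide exchanger H2-M, stood at 186 and 316 RPKM in CLP, 117 and 109 in ChILP, 134 and 227 in PD-1+ cells and 252 and 265 in CCR6+ cells. ChILP was lowest, below every other library, and the CLP range overlapped those of PD-1+ and CCR6+ cells. H2-DMb1 (NM_010387) and H2-DMb2 (NM_010388), neighbouring genes for the H2-M beta chain, are near copies, and 27.2% of the 50-base stretches of the H2-DMb1 transcript, the length of these reads, also occur in H2-DMb2, so their values are uncertain. H2-DMb1 stood at 17.98 and 24.96 RPKM in CLP, 19.7 and 32.7 in ChILP, 35.1 and 53.2 in PD-1+ cells and 46.5 and 64.2 in CCR6+ cells. H2-DMb2 stood at 3.57 and 6.35, 1.88 and 3.96, 21.2 and 39.4, and 40.2 and 48.2 RPKM in the same groups. H2-DMb1 exceeded H2-DMb2 3.93 to 10.5-fold in CLP and ChILP libraries and 1.16 to 1.66-fold in PD-1+ and CCR6+ libraries.

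H2-Ob and H2-DMa were also set against the classical chains within each library, where the scaling between libraries cancels. As a log2 ratio, the log2(RPKM + 0.1) of a gene less the mean of the same over H2-Aa, H2-Ab1 and H2-Eb1, H2-Ob stood at 0.68 and 2.81 in CLP, -1.93 and -2.88 in ChILP, -2.83 and -4.14 in PD-1+ cells and -4.90 and -4.94 in CCR6+ cells. H2-DMa stood at 2.22 and 4.29 in CLP, 1.04 and 0.70 in ChILP, -1.44 and -1.48 in PD-1+ cells and -1.87 and -1.57 in CCR6+ cells. Both chains thus exceeded the classical mean in CLP, H2-DMa still did in ChILP, and both lay below it in PD-1+ and CCR6+ cells. The ratio of Cd74 ranged from 1.02 to 1.76 over all 8 libraries. These ratios are a description with no test, because the genes to contrast were chosen with results known. The high ratios of CLP replicate 2 rest in part on its low H2-Aa and H2-Eb1.

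**Figure D2:**
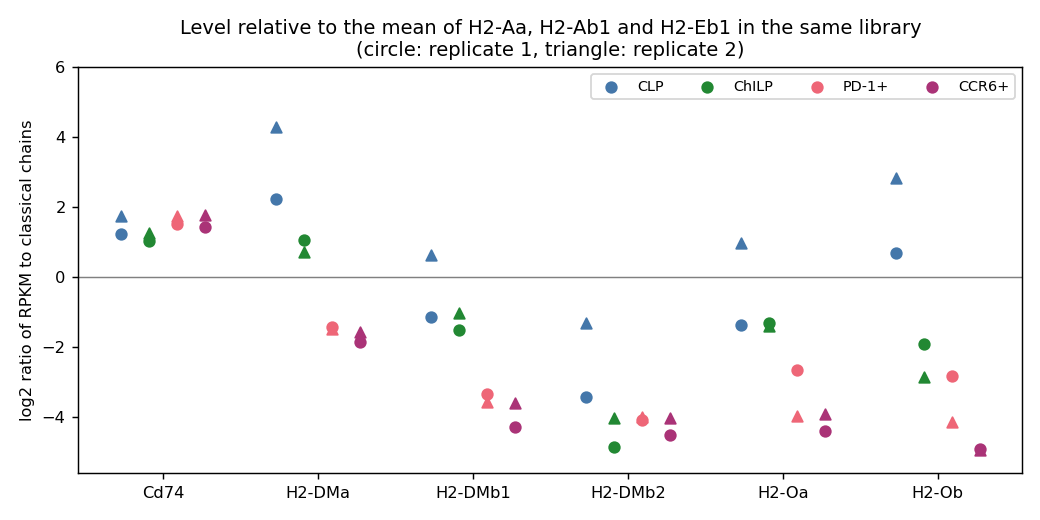
Log2 ratio of each gene to the classical chains: its log2(RPKM + 0.1) less the mean of the same over H2-Aa, H2-Ab1 and H2-Eb1 in that library (circle replicate 1, triangle replicate 2; the grey line marks equal levels). H2-DMa and H2-Ob lie above the line in both CLP libraries and below it in all PD-1+ and CCR6+ libraries, whereas Cd74 stays between 1.02 and 1.76.

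The study's first comparison asks how transcription changes from CLP to ChILP, both enriched by lineage depletion. Every ChILP library exceeded every CLP library for 5 of 10 members, H2-Aa, H2-Ab1, H2-Eb1, Cd74 and Ciita, beside 17.0% of all genes tested. For 2 of 10, H2-DMa and H2-Ob, every ChILP library lay below every CLP library, beside 18.6%. No member was called by edgeR's quasi-likelihood test over all 13619 genes, beside 0.022% of all genes (0.00734% higher and 0.0147% lower). At an unadjusted p under 0.05 stood 3 of 10 (H2-Eb1, H2-DMa and H2-Ob), beside 5.82%. DESeq2 called 1, H2-Ob, as did limma. The members' median log2 fold change was 0.48, beside 0.05 for all genes.

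H2-Ob came nearest to a call, with a mean of 11.96 ± 4.18 RPKM in ChILP against 88.8 ± 35.2 in CLP (SD, n = 2 each). Its log2 fold change was -2.82 (SE 0.34), 7.06-fold lower in ChILP, with an edgeR adjusted p of 0.0593. The value ranged from -3.23 to -2.44 leaving out 1 library in turn. H2-Ob passed in 7 of the 13 alternatives, among them DESeq2 (adjusted p = 8.13e-13) and the fit without ChILP replicate 1 (edgeR adjusted p = 0.0426), over a range of adjusted p up to 0.494. H2-DMa had a log2 fold change of -1.08 (SE 0.32, edgeR adjusted p = 0.479) and passed in 0 of 13.

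The classical genes had positive values that did not pass. H2-Eb1 had a log2 fold change of 1.74 (SE 0.62), H2-Aa of 0.99 (SE 0.58), H2-Ab1 of 0.61 (SE 0.31) and Cd74 of 0.93 (SE 0.42), with edgeR adjusted p of 0.697 to 0.977. H2-Aa and H2-Eb1 rest on CLP replicate 2: without it their values were 0.29 and 1.01, and without CLP replicate 1 they were 2.36 and 3.20. Ciita had 2.25 (SE 1.14), from 26 reads in CLP, all in replicate 1. Its value was 1.13 without CLP replicate 2, 9.22 without CLP replicate 1, which leaves CLP with no read, and 0.73 by limma on log2(RPKM + 1).

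The summed level of 12 B lineage markers was 247 and 314 RPKM in CLP and 94.1 and 29.2 in ChILP, and 8 of 12 were lower in every ChILP library than in every CLP library, beside 18.6% of all genes. Blnk, an adaptor protein of B cells, stood at 36.9 and 71.6 RPKM in CLP and 2.27 and 2.60 in ChILP, and Ebf1, a factor of B cell fate, at 10.5 and 16.6 against 1.805 and 0. Ms4a1 (CD20), a mature B cell marker, was low in these groups, at 0.136 and 0 in CLP and 1.41 and 0 in ChILP. EdgeR called 0 of the 12. At an unadjusted p under 0.05 stood 6, beside 5.82% of all genes, and DESeq2 called 3 of the 12 and 263 genes in all. Ms4a1, Fcer2a and Cd22 had positive log2 fold changes (3.55, 1.88 and 0.55). The part of B lineage cells in the H2-Ob values was not tested. In bulk libraries fewer cells of a type and less RNA per cell cannot be told apart.

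The second comparison of the study asks what sets PD-1+ apart from CCR6+ progenitors, both taken by magnetic capture. Each of 6 of 10 members, H2-Aa, H2-Ab1, H2-Eb1, Cd74, H2-DMa and H2-DMb2, was lower in both PD-1+ than in both CCR6+ libraries, beside 14.2% of all genes. H2-Ob alone of the 10 was higher in both PD-1+ libraries, beside 19.0% of all genes. By edgeR 0 members and 0.0% of all genes were called. H2-Ab1 had an unadjusted p under 0.05 (0.0451), as had 5.88% of all genes, and neither DESeq2 nor limma called a member.

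The members' median log2 fold change was -0.66, beside 0.01 for all genes. H2-Ab1 stood at 904 ± 386 RPKM in PD-1+ against 1459 ± 80.0 in CCR6+ cells (SD, n = 2 each), with a log2 fold change of -0.73 (SE 0.31, edgeR adjusted p = 0.839). H2-Ob had 0.55 (SE 0.32, edgeR adjusted p = 0.850). Without PD-1+ replicate 1 the value of H2-Ab1 was -0.33, and without PD-1+ replicate 2 it was -1.34 (edgeR adjusted p = 0.0739). Without both number 2 libraries the log2 fold change was -1.36 for H2-Ab1, -1.50 for H2-Aa, -1.79 for H2-Eb1, -1.45 for Cd74, -2.01 for Ciita, -1.12 for H2-DMa, -1.13 for H2-DMb2, -0.61 for H2-DMb1, 0.21 for H2-Oa and 0.53 for H2-Ob, and none was called (edgeR adjusted p of 0.108 to 0.924). Of these only H2-Oa had changed sign. PD-1+ replicate 1 also had the highest Gata3, a factor of innate lymphoid cells, at 316 RPKM against 62.8 in replicate 2. It had the lowest Ms4a1 and Lyz2 of the 4 libraries. Vpreb1, a B lineage marker, was instead highest in it, at 8.15 RPKM against 0.268 to 1.84 in the others. So was Ms4a7, a macrophage marker, at 22.0 against 15.7 to 18.4. The summed level of 12 B lineage markers was 272 and 348 RPKM in PD-1+ cells and 413 and 403 in CCR6+ cells, and 7 of the 12 were lower in both PD-1+ libraries, beside 14.2% of all genes. Their part in the class II values was not tested.

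A further contrast set the mean of PD-1+ and CCR6+ cells against ChILP. These groups share the ChILP gate, but the route of enrichment and the division by PD-1 and CCR6 differ together and cannot be told apart, and the ChILP libraries also serve the first comparison. All 10 members were higher in every PD-1+ and CCR6+ library than in both ChILP libraries, beside 12.6% of all genes. By edgeR 8 of 10 were called higher, beside 6.06% of all genes, and none lower, beside 6.19% (12.2% in either direction). The members' median log2 fold change was 3.53, beside -0.10 for all genes.

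Among the classical genes and the invariant chain the differences exceeded 10-fold. Cd74 stood at 2068 ± 729 RPKM (SD, n = 4) against 136 ± 30.0 in ChILP (SD, n = 2), a log2 fold change of 4.14 (SE 0.46, edgeR adjusted p = 0.00618). H2-Aa had 3.73 (SE 0.61), H2-Ab1 3.69 (SE 0.32) and H2-Eb1 3.55 (SE 0.62), that is 11.7 to 13.2-fold, with edgeR adjusted p of 0.00403 to 0.0139. Ciita stood at 10.1 ± 5.22 against 1.03 ± 0.449 RPKM and did not pass (log2 fold change 3.50, SE 1.01, edgeR adjusted p = 0.0602).

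Of the peptide-loading chains, H2-DMb2 had a value near those of the classical chains and the others had smaller ones. H2-DMb2 had a log2 fold change of 3.91 (SE 0.56, edgeR adjusted p = 0.00902). H2-Ob was 3.44-fold higher (log2 fold change 1.78, SE 0.30), H2-Oa 2.38-fold (1.25, SE 0.31) and H2-DMa 2.28-fold (1.19, SE 0.29), with edgeR adjusted p of 0.0129, 0.0380 and 0.0360. H2-DMb1 had 1.17 (SE 0.33) and did not pass (edgeR adjusted p = 0.0547).

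H2-Ab1, Cd74 and H2-DMb2 passed in each of the 16 alternatives. The number of calls over all genes also changed among the alternatives, as given in the section on processing. Member and marker counts under them are to be read beside that change. The count of 8 was 4 without ChILP replicate 1, 3 without ChILP replicate 2, 6 without either CCR6+ library, 8 without either PD-1+ library and 6 without both number 2 libraries of the captured groups. H2-Oa kept its call in 1 of the 6 fits that leave out a library, without PD-1+ replicate 2, and lost it with the replicate block (edgeR adjusted p = 0.0531). H2-DMa kept its call in 2 of the 6, without either PD-1+ library. H2-Aa and H2-Eb1 lost theirs without either ChILP library (edgeR adjusted p of 0.0544 to 0.0789) and H2-Ob without ChILP replicate 2 (0.0777).

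**Figure D3:**
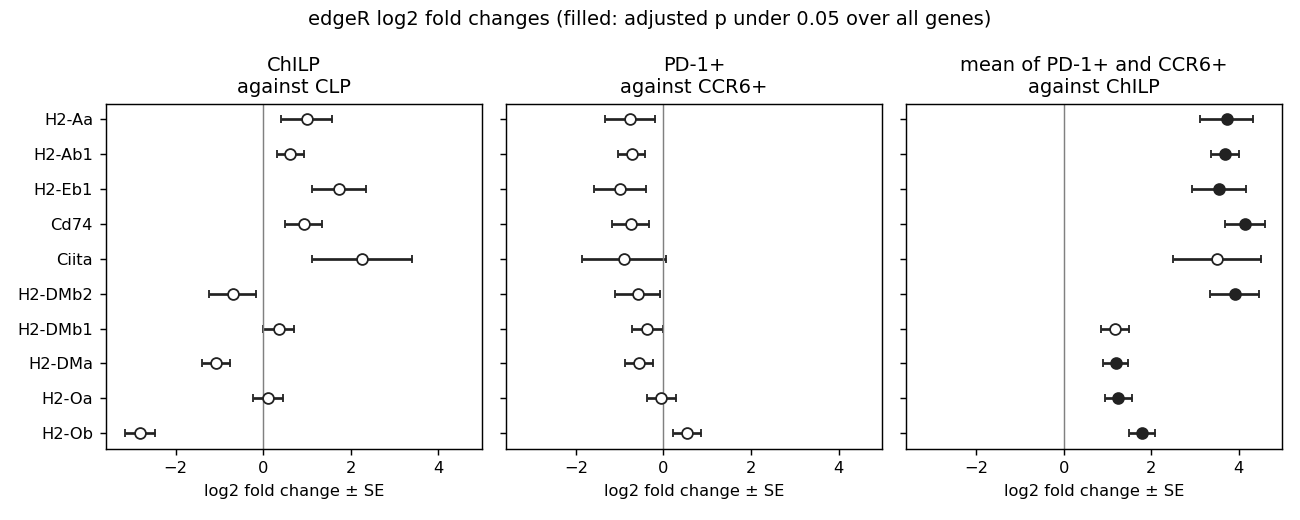
EdgeR log2 fold change of each member with its SE in the 3 comparisons; filled points passed an adjusted p under 0.05 over all genes and the grey line marks no difference. All filled points are in the contrast of PD-1+ and CCR6+ cells with ChILP, with H2-Aa, H2-Ab1, H2-Eb1, Cd74 and H2-DMb2 between 3.55 and 4.14, and H2-Ob is the farthest below 0 between ChILP and CLP, at -2.82.

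Markers of class II-bearing cells of other lineages differed alongside. Of 12 B lineage markers 8 were called higher in PD-1+ and CCR6+ cells than in ChILP (edgeR), beside 6.06% of all genes. Ebf1, Vpreb1 and Vpreb3 of that list overlapped between the groups (log2 fold changes of 2.11, -0.72 and 1.02). The summed level of the 12 was 272 to 413 RPKM against 94.1 and 29.2. Without both number 2 libraries of the captured groups, 4 of the 12 were called. Ms4a1 stood at 9.53 and 20.9 RPKM in PD-1+ cells and 19.0 and 29.6 in CCR6+ cells, and Fcer2a (CD23), another mature B cell marker, at 10.04 and 22.5 and at 26.1 and 20.8, against 0.391 and 0 in ChILP. Of 10 monocyte and macrophage markers 6 were called higher, beside 6.06% of all genes. Their sums, 7363 to 16619 RPKM against 1902 and 1164 in ChILP, were mostly Lyz2 in PD-1+ and CCR6+ cells. Lyz2, a lysozyme, stood at 6387 to 14677 RPKM against 1186 and 490, and Ly6c2, a monocyte surface antigen, at 557 to 1178 against 563 and 577. Without both number 2 libraries 5 of the 10 were called, and without ChILP replicate 2 there were 2.

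Of 9 conventional dendritic cell markers 2 were called higher, with sums of 91.0 to 161 RPKM against 40.8 and 57.3, and 0 were called without either ChILP library or without both number 2 libraries. Beside this count and the others of this paragraph stand 6.06% of all genes called higher and 6.19% called lower by edgeR. Itgax (CD11c) stood at 1.51 to 2.69 RPKM against 0.462 and 0.129. Zbtb46, a factor that defines these cells, was lower in every captured library, at 2.98 to 5.05 RPKM against 8.93 and 7.98, and was not called (log2 fold change -0.83, edgeR adjusted p = 0.145). Xcr1, Clec9a and Flt3 had values of -1.02, 0.21 and 0.03 and overlapped. Of 8 plasmacytoid dendritic cell markers 5 were called higher, with sums of 375 to 507 against 190.3 and 189.8, and 4 without both number 2 libraries. Within the B lineage and monocyte and macrophage lists, Cr2 alone had no read in either ChILP library. The ChILP reads of Ms4a1, Pax5, Ebf1, Vpreb3 and Fcer2a were all in replicate 1. Of 8 neutrophil markers edgeR called 3 lower, Elane, Mpo and Prtn3, proteins of early granules, and 0 higher, where DESeq2 called 3. The other 5 (S100a8, S100a9, Ltf, Camp and Ngp) were higher in every captured library than in both ChILP libraries, by 5.38 to 7.99-fold in the fit (edgeR adjusted p of 0.106 to 0.189). Of 6 erythroid markers 1 was called higher, with sums of 27809.9 to 40051 RPKM against 6295 and 1133. Most of the sums in the captured libraries was Hba-a1, a haemoglobin chain, at 21938 to 30607 RPKM. In every captured library 4 of the 6 exceeded both ChILP libraries, beside 12.6% of all genes. Epor was lower in each, at 39.9 to 59.6 RPKM against 80.9 and 60.4, and Klf1 overlapped (log2 fold change 0.09). The part of such cells in the class II values was not tested.

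**Figure D4:**
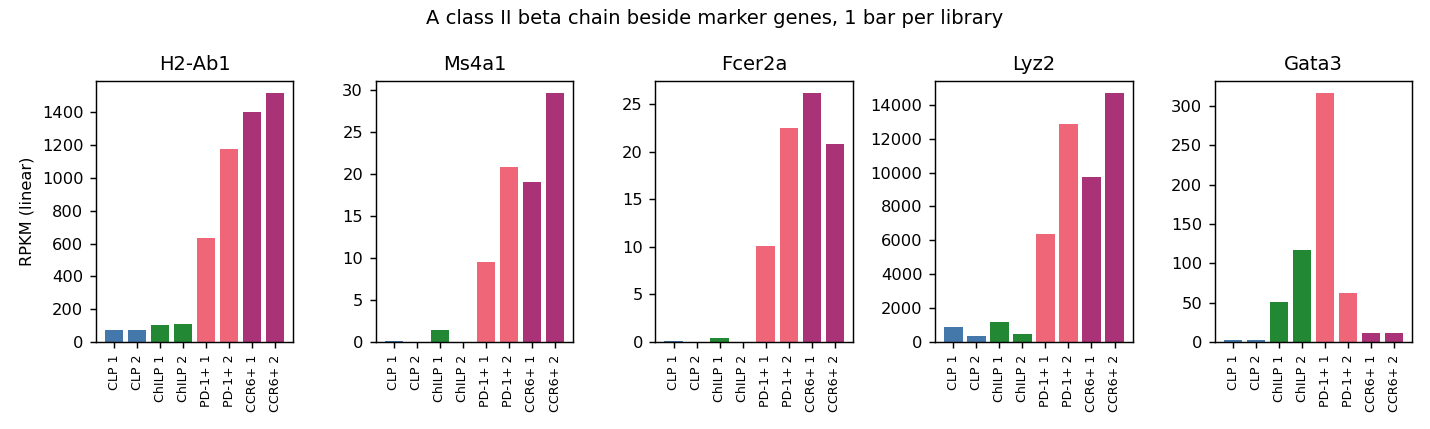
RPKM on linear axes, 1 bar per library, of H2-Ab1, the mature B cell markers Ms4a1 and Fcer2a, the myeloid lysozyme Lyz2 and the innate lymphoid factor Gata3. H2-Ab1, Ms4a1, Fcer2a and Lyz2 are each lowest in PD-1+ replicate 1 among the 4 PD-1+ and CCR6+ libraries, where Gata3 is highest, at 316. Vpreb1, a B lineage marker, and Ms4a7, a macrophage marker, which are not drawn, were highest in that library too.

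Other genes of the pathway were read from a list of 28, of which 27 passed the filter. Between ChILP and CLP edgeR called 0, with a median log2 fold change of -0.09. At an unadjusted p under 0.05 stood 3, beside 5.82% of all genes, and DESeq2 and limma called 0. Between PD-1+ and CCR6+ cells edgeR also called 0, with a median of -0.41. There 1 had an unadjusted p under 0.05, beside 5.88% of all genes, and DESeq2 and limma called 0. Against ChILP, 10 of 27 were called higher in PD-1+ and CCR6+ cells and none lower, beside 6.06% and 6.19% of all genes, with a median log2 fold change of 1.55 beside -0.10 for all genes. The count was 3 without ChILP replicate 2 and 7 without both number 2 libraries, where 1 gene, Rfxap, was called lower, as it was without PD-1+ replicate 2. Of 6 processing genes 5 passed: Ctss, the cathepsin that degrades the invariant chain (3.32, SE 0.37), Ctsb (2.10), Lgmn (2.03), Ifi30, a thiol reductase of endosomes (1.94), and Ctsd (1.05). Ctsl, the cathepsin that takes that role in thymic epithelium, stood at 22.4 to 32.9 RPKM in all 8 libraries.

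March1, the ubiquitin ligase that removes class II from the surface, and Cd83, which opposes it, also passed (3.58, SE 0.60, and 2.21, SE 0.45). Of 14 regulators 3 passed, among them Irf8, a factor of B and dendritic cells (1.02), and Ifngr2, a chain of the interferon gamma receptor (1.56). The subunits of the RFX complex, which binds the X1 box, were not called. Rfx5 had a log2 fold change of 0.05 (SE 0.46), Rfxank of -0.38 (SE 0.30) and Rfxap of -0.91 (SE 1.09), with edgeR adjusted p of 0.449 to 0.970. Sfpi1 (PU.1) had 1.18 (SE 0.32, edgeR adjusted p = 0.0501), and Irf4 had 0.0735 RPKM in PD-1+ replicate 1, 3.03 to 4.99 in the other 3, and 0 and 0.208 in ChILP.

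MHC class I genes, which present peptides from within the cell, were read the same way from a list of 14. Against ChILP, 6 were called higher and 1 lower in PD-1+ and CCR6+ cells (edgeR), beside 6.06% and 6.19% of all genes, with a median log2 fold change of 0.58 beside -0.10 for all genes. Without ChILP replicate 1 only 1 was called higher, without ChILP replicate 2 none, and without both number 2 libraries 5. Those called higher were H2-D1 (1.42), H2-K1 (1.03), H2-T23 (1.40), B2m (0.74), Tapbp (1.07) and Nlrc5 (1.44), the class I transactivator related to Ciita. Calr, a chaperone, fell by 1.20 on the log2 scale. Nlrc5 stood at 5.79 and 5.59 RPKM in CLP, 2.53 and 2.13 in ChILP, 5.70 and 5.64 in PD-1+ cells and 5.29 and 4.66 in CCR6+ cells, so CLP and the captured groups lay close together and ChILP stood below, unlike Ciita. In the other comparisons edgeR called 0 class I genes. Between ChILP and CLP, 1 of the 14 had an unadjusted p under 0.05, beside 5.82% of all genes. DESeq2 called 1 of the 14, beside 263 of all 13619 genes. Between PD-1+ and CCR6+ cells 0 of the 14 had an unadjusted p under 0.05, beside 5.88% of all genes, and DESeq2 called 0.

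The genes most like the classical chains were ranked by Pearson's r over the 8 libraries, between log2(RPKM + 1) of each gene and the mean of H2-Aa, H2-Ab1, H2-Eb1 and Cd74, among 7917 genes with a mean of at least 5 RPKM. The first 8 were Ccdc109b (r = 0.9955), Slfn1 (0.9941), Apoe (0.9941), Ifi30 (0.9937), Tyrobp (0.9926), Lst1 (0.9922), Ahnak (0.9919) and Clec4b1 (0.9918). Apoe, a lipid carrier of macrophages, had 1040.2 to 1552 RPKM in PD-1+ and CCR6+ cells, against 110 to 251 in the other 4 libraries. Tyrobp, a signalling adaptor of myeloid and NK cells, had 965 to 1427 against 230 to 416 RPKM. All genes compared share these libraries, their depth and the split by route of enrichment.

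The pattern of H2-Ob was most like Cd72 (r = 0.9472), a coreceptor of B cells, then Arid1a, Arid5a, Ythdc1 and Fam129c (0.9293 to 0.9462). Cd72 stood at 29.7 and 59.0 RPKM in CLP, 13.3 and 12.4 in ChILP, 34.5 and 27.7 in PD-1+ cells and 30.7 and 25.9 in CCR6+ cells. By the same measure H2-Ob had r = 0.0740 with H2-Oa, its partner chain, 0.645 with H2-DMa and -0.221 with H2-Aa.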

How the data were processed

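CASAVA 1.8.4, Bowtie2 2.2.2 and mm9 are named in the submitters' processing notes, without role or order. The counting method, strand setting and annotation were not given in the sources used here. For each library the authors deposited raw read counts of 29257 RefSeq transcripts. The deposited RPKM, checked on the tables, equal counts over length and over a library total. Isoforms share reads, so each of the 22878 symbols stands for the 1 transcript whose mean count was largest. Totals per library lay between 7685188 and 13997897 reads. Smart-seq2 amplifies before counting, so floors cover counting error only. Promoter windows (GRCm38.p6) and the GENCODE M21 transcripts behind shared stretches and exon overlaps are not the authors' annotation.

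The fit used edgeR 4.0.16 (R 4.3.3) on the counts, with TMM scaling, filterByExpr at a minimum count of 10, and robust quasi-likelihood F tests, two-sided, over all 8 libraries and 4 groups. Calls are at an adjusted p (Benjamini-Hochberg, 13619 genes) under 0.05. The last comparison contrasts the mean of the PD-1+ and CCR6+ groups with ChILP. The script was tested on simulated data. Levels are means and SD of RPKM, and log2 fold changes and SE are from edgeR. Alternatives were DESeq2 1.42.0 (size factors, and the Wald test), limma 3.58.1 on log2(RPKM + 1) and log2(RPKM + 0.1), other filters, only the libraries compared, a replicate block, the longest transcript and leaving out each library. Leaving out the number 2 libraries of both captured groups was added after seeing the data. A library left alone in its group is taken to vary as the other groups do. The members and lists were chosen with earlier results of these data known. The text names all 10 members, every called gene of the pathway and class I lists (except 1 that is not reported here), the 8 genes most like the classical chains and the 5 most like H2-Ob. Further genes were picked for naming after their values were seen.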

Additional observations from a re-analysis of the deposited data

How the results depend on the processing

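Counts of called genes over all genes changed with the processing, and the cause was not tested. Between ChILP and CLP, 3 genes were called, and 0 with DESeq2 size factors, 263 with the DESeq2 Wald test, 55 and 46 with limma on log2(RPKM + 1) and log2(RPKM + 0.1), 63 with no filter, 15 with at least 5 RPKM in 2 libraries, 59 with only the libraries compared and 0 to 24 leaving out 1 library. Between PD-1+ and CCR6+ cells, 0 were called, and 131 by the DESeq2 Wald test, 2 by limma on log2(RPKM + 1), 5 without both number 2 libraries and 0 to 36 leaving out 1 library. Between PD-1+ and CCR6+ cells together and ChILP, 1668 were called, 49.5% of them higher. That count was 2814 (60.5% higher) by the DESeq2 Wald test, 2927 and 2692 (31.8% higher in each) by limma on log2(RPKM + 1) and log2(RPKM + 0.1), 1097 without both number 2 libraries and 248 to 1896 leaving out 1 library. The median of all genes in this contrast was -0.10, and -0.02 to -0.36 under the alternatives, while the lowest value of any member was 0.85.

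No member changed sign in that contrast. In the others the sign changed for H2-Oa and H2-DMb1, whose values lie near 0. H2-Oa between PD-1+ and CCR6+ cells (-0.05) was 0.011 with limma at each pseudocount, 0.21 without both number 2 libraries and -0.27 to 0.13 leaving out 1 library. Between ChILP and CLP, H2-Oa ranged from -0.28 to 0.64 and H2-DMb1 from -0.067 to 0.67 leaving out 1 library.

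The labels number the libraries alike in each group but do not say that a number marks a shared day or animal. Differences between replicates 1 and 2 correlated at -0.106 to 0.0940 between groups. With the replicate number as a block, edgeR called 0 genes between ChILP and CLP, 0 between PD-1+ and CCR6+ cells and 1254 in the third contrast, where H2-Oa no longer passed (edgeR adjusted p = 0.0531) and H2-DMb1 did (0.0255).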

Other observations

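The 3 Ciita transcripts in the tables share most of their reads. In CLP replicate 1 NM_001243760 had 35 reads and NM_001243761 and NM_007575 had 26 each, while in ChILP replicate 2 all 3 had 109. None had a read in CLP replicate 2.

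Among costimulatory receptors of antigen-presenting cells, which were on the pathway list, none passed. Cd40 stood at 5.2 to 15.8 RPKM in PD-1+ and CCR6+ libraries and at 0.921 and 0 in ChILP (log2 fold change 4.98, SE 1.66, edgeR adjusted p = 0.0906). Cd86 had 2.60 (SE 0.73, edgeR adjusted p = 0.0551) and Cd80 3.29 (edgeR adjusted p = 0.325).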
